A study of Homo sapiens with 29 samples.

Results

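The genes described here are those of the oxidative phosphorylation system, chosen by name. They are the numbered NDUFA, NDUFB, NDUFC, NDUFS and NDUFV genes (complex I), SDHA to SDHD (complex II) and the UQCR genes (complex III). The COX4 to COX8 genes (complex IV), the ATP5 genes (complex V) and the 13 protein-coding genes of mitochondrial DNA complete the set. Complexes were assigned by gene name alone, which need not match where each protein works. The rule found 100 protein-coding genes among the 58302 genes of the count table, 87 encoded in the nucleus and 13 in the mitochondrion. The nuclear genes comprised 37 of complex I, 4 of complex II, 9 of complex III, 17 of complex IV and 20 of complex V. Of the mitochondrial genes, 7 belong to complex I, 1 to complex III, 3 to complex IV and 2 to complex V. The rule itself uses names and no measured value. The filter on low counts kept 93 of the 100, comprising 80 nuclear genes and all 13 mitochondrial genes.

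Complexes I and II pass electrons from NADH and succinate to coenzyme Q, complex III passes them to cytochrome c, and complex IV passes them to oxygen. Complexes I, III and IV pump protons across the inner mitochondrial membrane, and complex V, the ATP synthase, uses the gradient to make ATP. Complex II is encoded in the nucleus alone, whereas the other complexes join subunits made in the cytosol and imported with subunits transcribed and translated inside the mitochondrion, so the supply of both sets of transcripts is a known point of control. Mitochondrial transcripts are cut from long precursors and carry short poly(A) tails, and the tail completes the stop codon of several of them.

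The libraries were made with a kit that starts copying at the poly(A) tail, so a tailed transcript is counted near its 3′ end. The last 24 bases of the annotated gene are shown for mitochondrial genes that the line comparison below turns on, from GENCODE release 29 (GRCh38, mitochondrial chromosome), to show which reading frames end at the tail. Capitals mark a stop codon that is whole in the annotation, or the 1 base of an incomplete stop codon that the tail completes.

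MT-CYB: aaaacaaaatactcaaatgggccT

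MT-ND3: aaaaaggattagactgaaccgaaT

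MT-CO3: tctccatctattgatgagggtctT

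MT-ND2: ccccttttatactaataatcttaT

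MT-CO1: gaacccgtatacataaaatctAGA

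MT-ATP6: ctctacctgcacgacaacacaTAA

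MT-CYB (chrM:14747-15887), MT-ND3 (chrM:10059-10404), MT-CO3 (chrM:9207-9990) and MT-ND2 (chrM:4470-5511) end in an incomplete stop codon. The MT-CO1 transcript is known to run on past the stop codon shown. MT-ATP6 (chrM:8527-9207) is annotated to share its last base with the first base of MT-CO3. Whether its stop codon is whole in the cut transcript therefore cannot be read from the letters shown. MT-ND6 (chrM:14149-14673) is the only one of the 13 on the minus strand, and its transcript is known to lack a poly(A) tail, so what its counts stand for in libraries primed at the tail is uncertain. MT-ATP8 overlaps MT-ATP6 and MT-ND4L overlaps MT-ND4, and each pair is carried on 1 transcript in human mitochondria, so how the counts divide within a pair depends on the counting and is uncertain.

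MDA-MB-231 is an established line of human breast cancer cells that lack oestrogen, progesterone and HER2 receptors (triple-negative). The study injected the parental line, or a paclitaxel-resistant line derived from it, on both sides into the mammary site of SCID-beige mice, which lack mature lymphocytes and have impaired natural killer cells, and sequenced the tumours. The resistant line is a single derived line. Tumours of each line received vehicle, decitabine (an inhibitor of DNA methyltransferases, 0.4 mg/kg), doxorubicin (a topoisomerase poison, 1 mg/kg) or both, in 2 cycles of 12 days with 2 rest days between them, 26 days in all. The parental groups held 4 vehicle, 4 decitabine, 3 doxorubicin and 4 combination libraries, and the resistant groups held 4, 3, 4 and 3 in the same order. Injections held 250000 parental or 1500000 resistant cells, and dosing began on day 6 or day 16 respectively, so in any comparison of the lines the cell line, the cell number and the time of growth cannot be told apart. Which mouse each library came from is not given, and with tumours on both sides some libraries may share a mouse. The p-values then measure the spread between these libraries.

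Library totals ran from 3398261 to 5382295 counts with a median of 4600007, and levels are given in CPM, which scales each library to a common total, after TMM scaling, with factors from 0.896 to 1.07. VIM, CD44, AXL and EGFR, which mark this line, were present in all 29 libraries, and ESR1 and PGR, which it lacks, stood at no more than 2.53 CPM and at 1 count in all. Markers of muscle, a tissue rich in mitochondria, and of fat were low, and MYH1, MYH4, TNNT3 and ADIPOQ had no count. On the second principal component of the 2000 most variable genes, 2 libraries stood apart from the others. These were parental vehicle 3 at 34.6 and resistant decitabine 2 at 43.1, where no other library exceeded 20.6. Counts of called members that changed without these libraries are given both ways, as are several medians. In bulk tumour RNA, fewer cells of a type and less RNA per cell cannot be told apart.

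Summed over members, the mitochondrial transcripts outweighed the nuclear ones in every library, and the balance between them moved furthest toward the mitochondrial set in resistant tumours given decitabine. The 13 mitochondrial genes took 3.67% to 5.29% of all counts, and the ratio of their sum to the nuclear sum ran from 2.44 to 3.90. The log2 of that ratio was 1.41, 1.34, 1.58 and 1.59 in the parental vehicle libraries and 1.35, 1.48, 1.54 and 1.48 in the resistant vehicle libraries. These ranges overlapped, and the means differed by -0.02, a difference that took either sign (-0.06 to 0.02) when 1 library was left out. Among the remaining parental tumours it was 1.38, 1.49, 1.50 and 1.65 under decitabine, 1.46, 1.28 and 1.53 under doxorubicin, and 1.46, 1.34, 1.60 and 1.44 under the combination. All 15 parental libraries therefore lay between 1.28 and 1.65.

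In the resistant tumours the log2 ratio was 1.96, 1.81 and 1.84 under decitabine. All 3 values were above every parental library and every resistant vehicle library. Under doxorubicin it was 1.71, 1.72, 1.65 and 1.44, and under the combination 1.74, 1.87 and 1.59. The group means were 1.46 ± 0.08 (SD, n = 4) for vehicle, 1.87 ± 0.08 (SD, n = 3) for decitabine, 1.63 ± 0.13 (SD, n = 4) for doxorubicin and 1.73 ± 0.14 (SD, n = 3) for the combination. A ratio over members that were chosen with results known carries no test, and each difference here is a description of these libraries. The difference between resistant decitabine and resistant vehicle was 0.41 on the log2 scale, and 0.37 to 0.44 when any 1 of the 7 libraries was left out. In parental tumours the same difference was 0.02, and -0.02 to 0.07 when 1 library was left out. Without MT-ND4, the most abundant mitochondrial member, the resistant means were 1.19 for vehicle and 1.61 for decitabine, and without ATP5MG, the most abundant nuclear member, they were 1.58 and 1.98.

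Both sides of the ratio differed between the resistant decitabine and vehicle tumours. Their nuclear sums were 12846 to 13755 CPM against 14100 to 15961 CPM under vehicle, and their mitochondrial sums were 45180 to 50553 CPM against 39459 to 44381 CPM. Neither pair of ranges overlapped. By complex, the mean nuclear sum went from 1900 ± 159 to 1501 ± 131 CPM for complex III (SD, n = 4 and 3), from 3198 ± 210 to 2536 ± 146 CPM for complex IV, from 5772 ± 400 to 5183 ± 225 CPM for complex V and from 4140 ± 199 to 3871 ± 114 CPM for complex I. The complex III and IV ranges did not overlap, and those of complexes I and V did. The complex II sum was 40.1 CPM in resistant decitabine 2 and 119 to 128 CPM in the other 2 libraries of that group, against 125 to 148 CPM under vehicle. The plot of sums by library shows similar parental group means of the ratio and higher means in the resistant treated groups than under resistant vehicle.

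**Figure D1:**
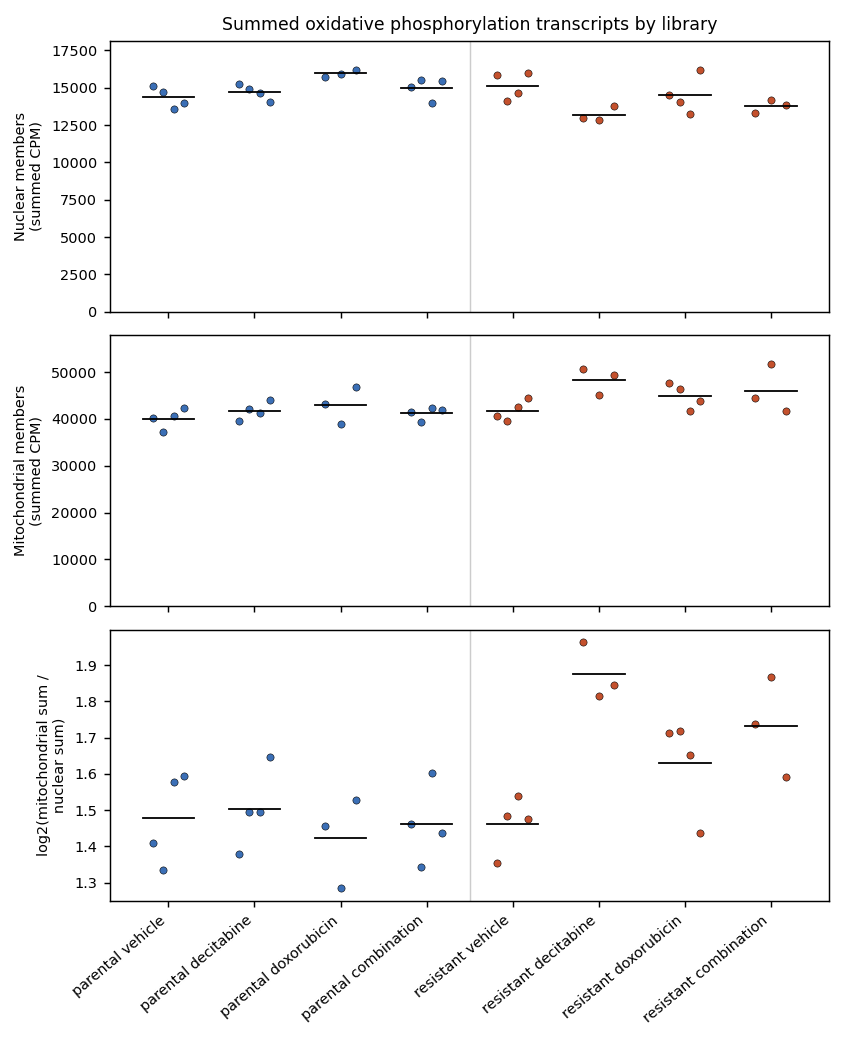
Summed CPM of the nuclear members (top), of the 13 mitochondrial members (middle) and the log2 of their ratio (bottom), with 1 point per library, bars at group means, parental groups in blue and resistant groups in red-orange. The ratio lies between 1.28 and 1.65 in all 15 parental libraries and between 1.81 and 1.96 in the 3 resistant decitabine libraries; the ratio axis does not start at 0.

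The first comparison asks how the resistant tumours differ from the parental ones, averaged over the 4 treatments. The nuclear subunits split, with 8 of 80 higher and 12 lower in resistant tumours, while 7 of the 13 mitochondrial genes were higher and 1 was lower. Together 28 of 93 members (30.1%) passed edgeR's quasi-likelihood test at an adjusted p under 0.05, where 46.0% of all 13495 genes tested passed (22.6% higher and 23.4% lower). The difference between these shares was not tested. The median log2 fold change was -0.02 for nuclear members and 0.16 for mitochondrial members, beside -0.0035 for all genes. The split of 15 higher and 13 lower among all members turned with the settings: it was 20 and 11 with upper-quartile scaling and 18 and 13 in DESeq2, but 10 and 20 with no filter and 13 and 15 without the 2 libraries that stood apart. Markers of other cells differed between the lines too, and their part in these differences was not tested. Of 6 tested myeloid markers 2 were higher in resistant tumours (CTSS at 1.18 and FCER1G at 1.06) and 1 lower (CSF1R at -1.06). Of 4 endothelial markers 1 was higher (CDH5 at 1.89) and 1 lower (PECAM1 at -0.59). The 1 tested adipocyte marker was higher (FABP4 at 1.42), and none of 6 fibroblast markers was called. FCER1G, CSF1R and CDH5 had only 150, 207 and 180 counts over all libraries, so their changes are uncertain. The highest group means of FCER1G (4.08 CPM, decitabine) and CDH5 (3.76 CPM, combination) were in resistant tumours. The filter may have kept both genes for those groups. FABP4 had a median of 1.17 CPM over all libraries and reached 32.4 CPM in 1 resistant combination library. Over the parental and resistant libraries the summed levels ran from 70.3 to 179 and from 79.4 to 225 CPM for myeloid markers, and from 17.3 to 30.8 and from 9.39 to 41.8 CPM for endothelial markers. The line's own markers AXL and CD44 were higher in resistant tumours, at 0.50 and 0.45, and VIM was lower, at -0.30.

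The accessory complex I subunits NDUFB9 and NDUFS5 fell furthest. NDUFB9, an accessory subunit of the membrane arm, had a lowest, median and highest level of 145.6, 192.7 and 211.8 CPM in the 15 parental libraries and of 68.9, 88.3 and 115.0 CPM in the 14 resistant libraries. NDUFS5, an accessory subunit on the intermembrane side, had 275.6, 304.4 and 358.8 CPM against 149.7, 170.8 and 209.7 CPM. For both genes every resistant library lay below every parental library. The log2 fold changes were -1.03 (SE 0.06, edgeR adjusted p = 9.26e-14) for NDUFB9 and -0.83 (SE 0.05, edgeR adjusted p = 4.42e-14) for NDUFS5. The 5 complex I members that rose did so by less: NDUFB1 by 0.37, NDUFS6 by 0.21, NDUFA10 and NDUFV3 by 0.17 and NDUFC2 by 0.15. The other 30 nuclear complex I genes were not called, among them the catalytic core subunits NDUFS1, NDUFV1 and NDUFV2, whose log2 fold changes were 0.07, 0.12 and 0.10.

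In complex II, the flavoprotein SDHA and the membrane anchor SDHD were not called, while the iron-sulphur subunit SDHB and the anchor SDHC were lower. SDHC had 18.8, 39.3 and 67.0 CPM (lowest, median and highest) in parental and 15.2, 28.0 and 39.5 CPM in resistant tumours, a log2 fold change of -0.51 (SE 0.14, edgeR adjusted p = 0.00389), with ranges that overlapped. SDHB changed by -0.55 (SE 0.22, edgeR adjusted p = 0.0449) and kept its call in 8 of 29 fits that left out 1 library. The changes of SDHA and SDHD were 0.18 (SE 0.17) and 0.23 (SE 0.24).

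Complex III held the hinge protein UQCRH, which binds cytochrome c1, at 434.9, 509.4 and 608.0 CPM in parental and 272.9, 349.5 and 398.7 CPM in resistant libraries. The ranges did not overlap, and the log2 fold change was -0.59 (SE 0.05, edgeR adjusted p = 1.16e-10). UQCRHL, a near-identical copy of UQCRH with which it can share reads, changed by -0.39 and is uncertain for that reason, and UQCRB fell by 0.19. The Rieske iron-sulphur protein UQCRFS1 went the other way, with 30.4, 42.1 and 53.6 CPM in parental and 36.7, 55.9 and 82.5 CPM in resistant libraries, a rise of 0.39 (SE 0.08, edgeR adjusted p = 0.000327).

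In complex IV the only nuclear gene called was COX5B, a regulatory subunit on the matrix side. Its levels were 138.8, 157.1 and 199.1 CPM in parental and 94.8, 109.6 and 120.6 CPM in resistant libraries, with no overlap and a log2 fold change of -0.57 (SE 0.05, edgeR adjusted p = 8e-10). The other 10 tested subunits ran from -0.19 to 0.14. NDUFB9, NDUFS5, UQCRH and COX5B were the 4 members, all nuclear, whose 15 parental and 14 resistant libraries did not overlap. Over all genes tested, 3.34% did not overlap in this way.

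Among ATP synthase genes, the catalytic-head subunit ATP5F1A and the peripheral-stalk subunits ATP5PB and ATP5PD fell, as did ATP5IF1, the inhibitor that blocks ATP hydrolysis. ATP5F1A had 270.3, 313.8 and 397.9 CPM in parental and 180.4, 233.3 and 318.4 CPM in resistant libraries, a change of -0.41 (SE 0.06, edgeR adjusted p = 2.34e-06). ATP5PB changed by -0.46 (SE 0.07, edgeR adjusted p = 1.02e-05), ATP5IF1 by -0.35 (SE 0.09, edgeR adjusted p = 0.002) and ATP5PD by -0.22. The 3 genes ATP5MC1, ATP5MC2 and ATP5MC3 encode the same mature c-ring subunit with different import sequences. ATP5MC1 rose by 0.43 (SE 0.10, edgeR adjusted p = 0.000875), and ATP5MC2 and ATP5MC3 changed by 0.02 (SE 0.08) and -0.04 (SE 0.07). ATP5MF rose by 0.23.

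**Figure D2:**
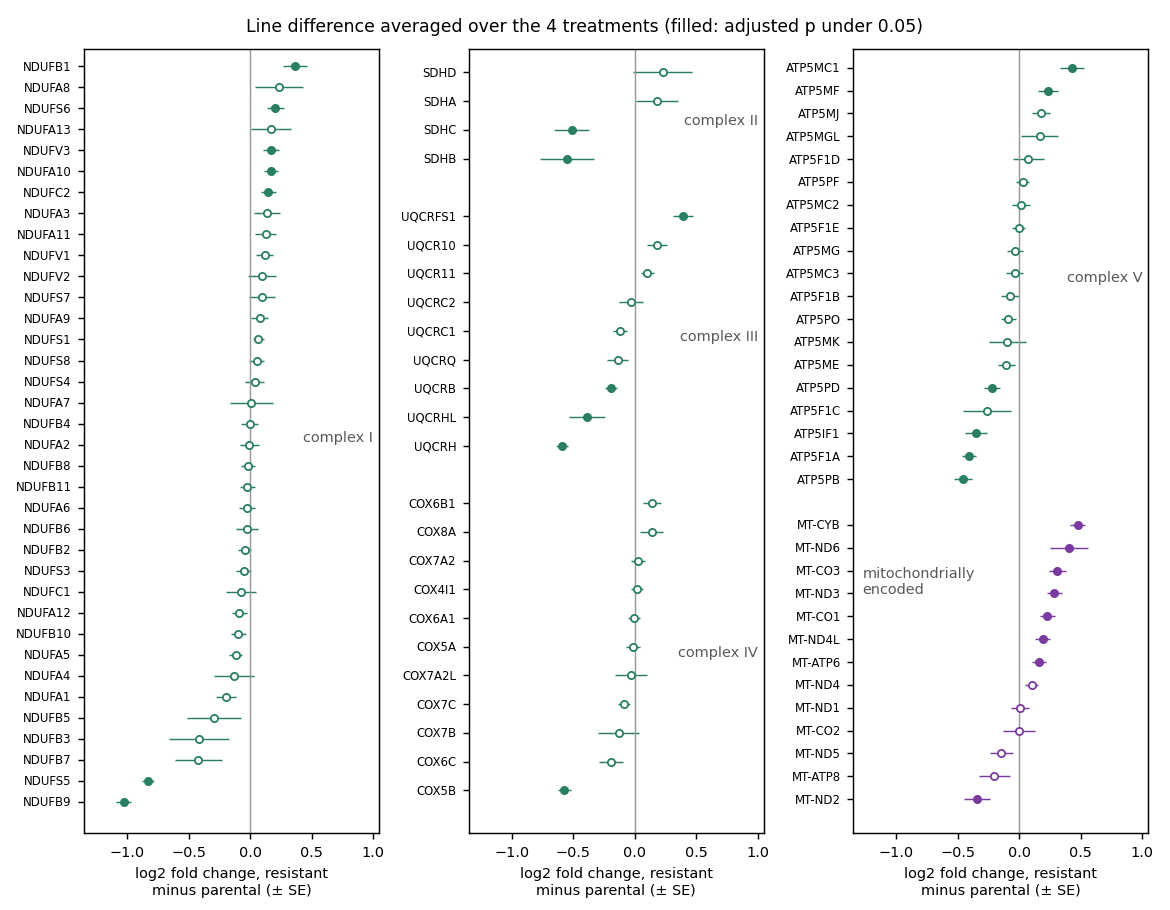
Log2 fold change of the tested members but 1, resistant minus parental averaged over the 4 treatments, with bars of 1 SE, grouped by complex for nuclear genes (green) and shown together for mitochondrial genes (purple). Filled points passed at an adjusted p under 0.05; NDUFB9 and NDUFS5 lie furthest below 0, and 7 of the 13 mitochondrial genes are called above 0.

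The mitochondrial genes called higher belong to every complex with a mitochondrial subunit, complex V through MT-ATP6 alone. MT-CYB, the cytochrome b of complex III, had 3002, 3564 and 4406 CPM in parental and 4017, 4919 and 6142 CPM in resistant libraries, a rise of 0.47 (SE 0.06, edgeR adjusted p = 1.23e-07) with ranges that overlapped. MT-ND6, with the limit given above, rose by 0.40, the complex IV core subunits MT-CO3 and MT-CO1 by 0.31 and 0.23, the complex I subunits MT-ND3 and MT-ND4L by 0.29 and 0.19, and the ATP synthase subunit MT-ATP6 by 0.16. With no filter MT-ATP6 and MT-ND4L were not called (edgeR adjusted p = 0.109 and 0.0573). MT-ND6 kept its call in 25 of 29 fits that left out 1 library and lost it without the 2 that stood apart. MT-ND2 was the exception, at 2000, 2971 and 4415 CPM in parental and 1736, 2307 and 3144 CPM in resistant libraries, a change of -0.35 (SE 0.11, edgeR adjusted p = 0.00987). The changes not called were 0.10 for MT-ND4, 0.00 for MT-ND1 and -0.00 for MT-CO2, then -0.15 for MT-ND5 and -0.20 for MT-ATP8. MT-CYB and MT-ND2 lie on the same strand, and their differences between the lines had opposite signs.

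**Figure D3:**
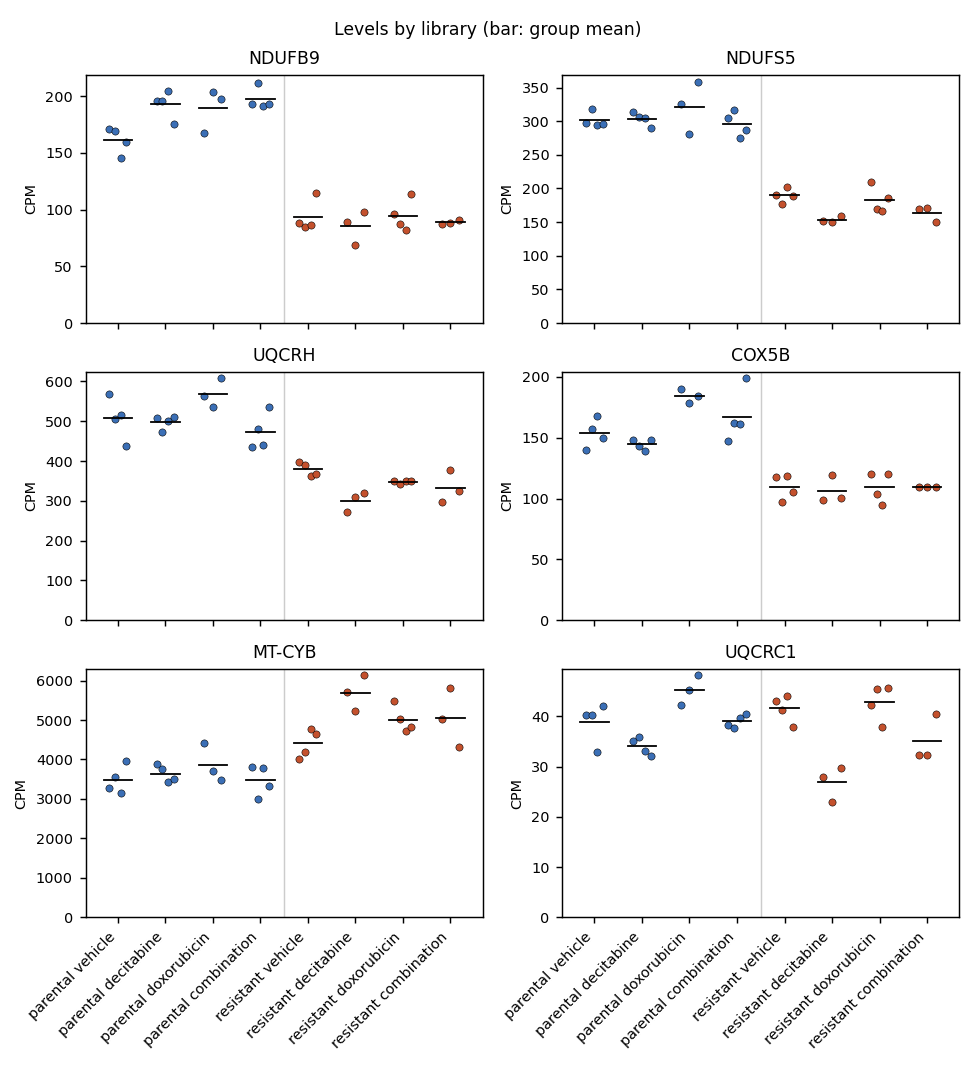
CPM of 6 members in each of the 29 libraries, with bars at group means and each axis from 0. NDUFB9, NDUFS5, UQCRH and COX5B separate the 15 parental from the 14 resistant libraries, MT-CYB is highest in resistant decitabine tumours, and UQCRC1 is lowest there.

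Genes close to a called nuclear member were called in the same direction in some places and not in others. Over all genes tested 22.6% were higher and 23.4% lower in resistant tumours. Within 1 Mb on either side of NDUFB9, on chromosome 8, 10 of 11 tested neighbours were lower and none was higher, with a median of -0.77. Around ATP5PB on chromosome 1 it was 5 of 7 with none higher, around COX5B on chromosome 2 it was 9 of 14 with 2 higher, and around UQCRH on chromosome 1 it was 13 of 24 with 1 higher. Around 2 genes that rose, UQCRFS1 on chromosome 19 and ATP5MC1 on chromosome 17, 4 of 5 and 18 of 29 neighbours were higher. Others had mixed or opposite neighbours: ATP5PD, which was lower, had 15 higher and 2 lower of 39, NDUFB1, which was higher, had 2 higher and 5 lower of 12, ATP5F1A had 4 higher and 3 lower of 9, SDHC had 5 and 5 of 24, NDUFV3 had 1 and 1 of 9, and NDUFS6 had 1 higher and none lower of 7. NDUFS5 had 3 higher and 6 lower of 12. Whether copy number differs between the lines at these places was not tested.

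Under vehicle alone, 4 resistant against 4 parental libraries, 15 of 93 members were called (9 higher and 6 lower). Over all genes 20.1% were called (8.66% higher and 11.5% lower). The median log2 fold change was 0.16 for nuclear and 0.09 for mitochondrial members, beside 0.02 for all genes. In the average over the 4 treatments these medians were -0.02 and 0.16, so the order of the 2 sets was the reverse under vehicle. NDUFB9 changed by -0.78, NDUFS5 by -0.67, ATP5F1A by -0.60, ATP5IF1 by -0.58, COX5B by -0.49 and UQCRH by -0.42. The rises included UQCRFS1 at 0.64, NDUFB1 at 0.69 and 2 small complex IV subunits, COX8A at 0.75 (SE 0.18, edgeR adjusted p = 0.0038) and COX6B1 at 0.51 (SE 0.13, edgeR adjusted p = 0.00688). MT-CYB, at 0.34, was the only mitochondrial gene called. It kept its call in 4 of 8 fits that left out 1 library and lost it without the 2 that stood apart. The 4 and 4 libraries did not overlap for 12 nuclear members that were higher and 7 that were lower and for MT-CYB, where 22.3% of all genes did not overlap. COX8A stood at 124.5, 94.7, 50.9 and 91.0 CPM in the parental vehicle libraries and at 155.1, 163.4, 116.7 and 171.5 CPM in the resistant ones, where the highest parental value exceeded the lowest resistant value. The parental value of 50.9 belongs to parental vehicle 3, and without that library 9 members were called in place of 15. Without both libraries that stood apart, 5 were higher and 6 lower, and the medians were 0.12 for nuclear and 0.07 for mitochondrial members.

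The second comparison asks what decitabine changed in the tumours. Averaged over both lines, with and without doxorubicin, 4 nuclear subunits fell and none of the 13 mitochondrial genes was called (unadjusted p under 0.05 for 1, 1 called by DESeq2). Over all genes 6.8% were called (3.96% higher and 2.85% lower). The 4 were UQCRC1, a core subunit of complex III, at -0.33 (SE 0.06, edgeR adjusted p = 0.000504), COX4I1, the regulatory subunit that binds ATP in complex IV, at -0.22 (SE 0.05, edgeR adjusted p = 0.00701), COX7C at -0.19 (SE 0.05, edgeR adjusted p = 0.0188) and UQCRH at -0.17 (SE 0.05, edgeR adjusted p = 0.0338). Of the nuclear members 64 of 80 lay below 0, all 9 of complex III and all 11 of complex IV among them, with a median of -0.08, and 11 of 13 mitochondrial members lay above 0, with a median of 0.08. The median over all genes was -0.0061. DESeq2 size factors gave 1 higher and 3 lower, and upper-quartile scaling 1 higher and 4 lower. The number called was 8 without parental vehicle 3, 7 without resistant doxorubicin 3, 2 without resistant vehicle 1, and 8 without both libraries that stood apart.

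In resistant tumours, decitabine alone lowered 6 nuclear subunits, of complexes III, IV and V, where 3.33% of all genes were called (2.03% higher and 1.3% lower). UQCRC1 stood at 43.0, 41.3, 44.1 and 38.0 CPM under vehicle and at 27.9, 22.9 and 29.8 CPM under decitabine. All 3 treated values lay below the 4 vehicle values, and the log2 fold change was -0.62 (SE 0.12, edgeR adjusted p = 0.00332). COX8A was at 155.1, 163.4, 116.7 and 171.5 CPM under vehicle and at 100.7, 63.8 and 112.6 CPM under decitabine, a change of -0.71 (SE 0.20, edgeR adjusted p = 0.0437) with no overlap. COX6B1, which lies on the cytochrome c side of complex IV, was at 126.3, 103.4, 107.2 and 121.4 CPM and then at 86.7, 65.5 and 87.3 CPM, a change of -0.52 (SE 0.15, edgeR adjusted p = 0.0461). Its ranges did not overlap either.

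The other 3 belong to the ATP synthase. ATP5PB was at 119.5, 106.2, 129.6 and 144.4 CPM under vehicle and at 89.0, 58.2 and 96.0 CPM under decitabine, a change of -0.62 (SE 0.15, edgeR adjusted p = 0.0237). The c-ring genes ATP5MC2 and ATP5MC3 changed by -0.57 (SE 0.16, edgeR adjusted p = 0.0392) and -0.53 (SE 0.14, edgeR adjusted p = 0.0401). In all 3 the treated libraries lay below all vehicle libraries. ATP5MC1, the remaining c-ring gene, was at 150.5, 146.4, 133.0 and 163.6 CPM and then at 121.2, 218.1 and 143.9 CPM, a change of 0.12 (SE 0.20) that was not called. Of the 80 nuclear members 59 lay below 0, with a median of -0.24 beside -0.0035 for all genes, and 24 had an unadjusted p under 0.05 in that direction against 1 in the other.

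Lower nuclear levels and higher mitochondrial levels separated the libraries in the resistant decitabine comparison. The 3 treated and 4 vehicle libraries did not overlap for 23 nuclear members that were lower and 1 that was higher, and for 4 mitochondrial members that were all higher, where 16.0% of all genes did not overlap. These 4 were MT-CYB, MT-ND4L, MT-ND5 and MT-ATP6. MT-CYB was at 4017, 4189, 4781 and 4642 CPM under vehicle and at 5699, 5232 and 6142 CPM under decitabine, a log2 fold change of 0.37 (SE 0.12, edgeR adjusted p = 0.0801). MT-ND4L was at 339.2, 331.4, 451.1 and 421.5 CPM and then at 551.2, 480.6 and 523.1 CPM, 0.43 (SE 0.13, edgeR adjusted p = 0.063). Of the 13 mitochondrial genes 12 lay above 0, with a median of 0.23. None passed in edgeR, with 3 at an unadjusted p under 0.05, and DESeq2 called 2, MT-CYB and MT-ND4L. The exception in direction was MT-CO2 at -0.08, whose level was 706.9 CPM in resistant decitabine 2 and 1946 and 1748 CPM in the other 2 libraries.

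These calls depend on few libraries. UQCRC1 was called in all 7 fits that left out 1 of the 7 libraries and under every other setting, but the number called was 1 without resistant vehicle 4, 2 without resistant vehicle 1, resistant vehicle 2 or resistant decitabine 2, and 10 without resistant decitabine 1. Without resistant decitabine 2 and parental vehicle 3, the call stood for UQCRC1, at -0.53 (edgeR adjusted p = 0.0299), COX4I1 joined it at -0.49 (edgeR adjusted p = 0.0125), and the other 5 were not called. The medians in that fit were -0.15 for nuclear and 0.25 for mitochondrial members. Upper-quartile scaling gave 2 higher and 4 lower in place of 0 and 6.

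**Figure D4:**
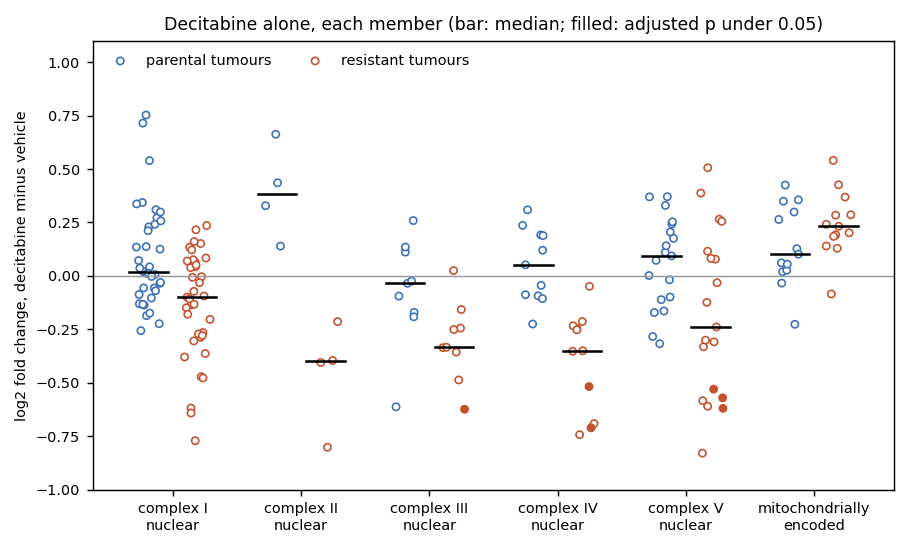
Log2 fold change of each tested member under decitabine alone, in parental (blue) and resistant (red-orange) tumours, by complex for nuclear genes and together for mitochondrial genes, with bars at medians and filled points at an adjusted p under 0.05. The resistant medians of complexes I to V lie below 0 and that of the mitochondrial genes above 0; horizontal scatter within a column has no meaning.

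In parental tumours none of the 93 members was called under decitabine alone by edgeR (unadjusted p under 0.05 for 5 higher and 3 lower) or by DESeq2, where 1.67% of all genes were called (0.793% higher and 0.874% lower). The medians were 0.05 for nuclear and 0.10 for mitochondrial members, and 0.01 and 0.10 without parental vehicle 3 and resistant decitabine 2. UQCRC1 was at 40.3, 40.2, 32.9 and 42.0 CPM under vehicle and at 35.1, 35.9, 33.2 and 32.0 CPM under decitabine, a change of -0.19 (SE 0.11, edgeR adjusted p = 0.339) with overlapping ranges. COX8A changed by 0.31 (SE 0.18, edgeR adjusted p = 0.355). The groups did not overlap for 4 nuclear members, 2 higher and 2 lower, and for MT-CO3, where 9.46% of all genes did not overlap. MT-CO3 was at 6241, 5977, 6432 and 6097 CPM under vehicle and at 5533, 5725, 4841 and 5053 CPM under decitabine, all lower, and was not called. The 2 decitabine comparisons differ in their control groups. In the test of the difference between the lines none of the 93 members passed in edgeR, where 0.119% of all genes passed (0.104% higher and 0.0148% lower). At an unadjusted p under 0.05, 2 members were higher and 26 lower. Both shares of genes called in this paragraph are at the adjusted threshold, so they give no background for the unadjusted counts of members.

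DESeq2 called 3 of these differences, those of COX8A, ATP5PB and ATP5MC3. In edgeR, 3 members passed without parental vehicle 1 or without resistant decitabine 3. The difference was -1.02 for COX8A (approximate 95% interval -1.55 to -0.49, edgeR adjusted p = 0.0787) and -0.76 for ATP5PB (95% interval -1.17 to -0.35, edgeR adjusted p = 0.082). For UQCRC1 it was -0.43 (95% interval -0.75 to -0.11, edgeR adjusted p = 0.161) and for MT-CYB 0.31 (95% interval -0.01 to 0.63, edgeR adjusted p = 0.287). The members' median was -0.30 for nuclear and 0.12 for mitochondrial genes, beside -0.0017 for all genes. Without the 2 libraries that stood apart it was -0.20 and 0.21, and no member was called.

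Decitabine removes DNA methylation, and promoters of housekeeping genes such as these are usually rich in CpG, the site of that methylation. No methylation was measured here. RefSeq's promoter table (GRCh38.p14) held 69 of the 87 nuclear members. The 250 bases before the start are shown for 3 genes that decitabine lowered in resistant tumours. Capitals mark a match, on either strand, to the NRF1-type motif (GCGCA, any base, then GCGC) in UQCRC1 and to the ETS-type motif CCGGAAG in COX8A and COX6B1. NRF1 and the ETS factor GABP are known activators of respiratory genes.

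UQCRC1: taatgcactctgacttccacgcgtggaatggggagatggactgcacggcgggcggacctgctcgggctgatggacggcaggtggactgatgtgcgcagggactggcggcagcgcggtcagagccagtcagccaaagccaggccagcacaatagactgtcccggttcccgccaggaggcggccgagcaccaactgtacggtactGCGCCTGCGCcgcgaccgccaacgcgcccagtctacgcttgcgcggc

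COX8A: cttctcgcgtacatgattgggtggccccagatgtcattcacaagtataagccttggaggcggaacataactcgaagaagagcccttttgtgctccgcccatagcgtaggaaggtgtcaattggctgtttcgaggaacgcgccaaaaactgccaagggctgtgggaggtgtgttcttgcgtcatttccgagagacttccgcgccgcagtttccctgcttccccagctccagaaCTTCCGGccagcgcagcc

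COX6B1: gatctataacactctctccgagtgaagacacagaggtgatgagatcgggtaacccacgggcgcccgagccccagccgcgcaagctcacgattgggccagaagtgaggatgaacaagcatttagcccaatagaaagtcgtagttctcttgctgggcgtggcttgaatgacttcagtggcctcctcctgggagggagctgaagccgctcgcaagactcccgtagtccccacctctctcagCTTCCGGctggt

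ATP5PB and ATP5MC2, which decitabine also lowered, had no match to either motif in this window, and the 3 windows were chosen for holding one. The windows shown are chr3:48609647-48609896 on the minus strand for UQCRC1, chr11:63974370-63974619 on the plus strand for COX8A and chr19:35648073-35648322 on the plus strand for COX6B1. They hold 26, 16 and 14 CpG. Over the 69 nuclear members the median was 18 CpG, against 11 over all 27305 promoters of the table. The NRF1-type motif was found in 15 of the 69 (21.7%) and in 5.53% of all promoters, CCGGAAG in 17 (24.6%) and 8.82%, and CCAAT, common in promoters generally, in 24 (34.8%) and 33.0%. A match describes the letters of the window only.

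Other measures moved beside the decitabine comparison in resistant tumours, and their part in it was not tested. The summed level of the line's own markers VIM, CD44, AXL and EGFR ran from 3876 to 4129 CPM under vehicle and from 2751 to 3568 CPM under decitabine, without overlap. The summed level of 8 myeloid markers ran from 115.8 to 142.1 CPM under vehicle and from 179.6 to 225.5 CPM under decitabine. LAPTM5 was the largest part of this sum, with group means of 78.5 and 140.6 CPM. CSF1R (0.89 and 0.75 CPM) and CD14 (1.08 and 0.65 CPM) had lower means under decitabine. Of 6 tested markers 2 were called higher (FCER1G and LAPTM5), although TYROBP had 2 counts in all libraries together. FCER1G had 150 counts in all and its highest group mean (4.08 CPM) in the resistant decitabine group. The filter may have kept it for that reason, so its call adds no support. The sum of 8 endothelial markers ran from 12.4 to 16.0 CPM and from 26.4 to 32.5 CPM, with 1 of 4 tested called higher (ENG). The sum of 8 fibroblast markers overlapped, from 657.7 to 2100 CPM and from 824.1 to 1564 CPM. The hosts are mice, and how mouse reads were treated is not given in the sources used here, so these human gene names may hold reads of mouse cells.

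Genes that cells switch under low oxygen were also lower in sum. The summed level of 11 hypoxia-linked genes ran from 4533 to 5292 CPM under vehicle and from 1549 to 3558 CPM under decitabine in resistant tumours, with 3 of 8 tested genes lower: BNIP3, a mitophagy receptor, at -1.22, and the glycolytic enzymes PGK1 at -0.92 and LDHA at -0.90. In parental tumours the sum was 4158 ± 698 CPM under vehicle and 3418 ± 800 CPM under decitabine (SD, n = 4 each), and none of the 8 was called.

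For doxorubicin few members were called, and few of all genes. Averaged over both lines, with and without decitabine, 2 of 93 were called, where 2.37% of all genes were called (0.83% higher and 1.54% lower). The peripheral-stalk subunit ATP5PD changed by -0.29 (SE 0.07, edgeR adjusted p = 0.0236) and was called in 27 of 29 fits that left out 1 library. UQCRC1 changed by 0.21 (SE 0.06, edgeR adjusted p = 0.0493) and was called in 6 of 29. Without parental doxorubicin 2, or without resistant combination 1, no member was called. ATP5PD stood at 72.1, 60.6, 54.0 and 57.4 CPM in resistant vehicle and at 49.3, 46.4, 42.3 and 40.8 CPM in resistant doxorubicin libraries, with no overlap. In parental tumours it stood at 57.5, 58.9, 69.2 and 60.9 CPM under vehicle and at 56.2, 50.9 and 66.7 CPM under doxorubicin, with overlap.

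With doxorubicin alone none of the 93 members passed in parental tumours in edgeR (12 higher and none lower at an unadjusted p under 0.05) or in DESeq2, where 0.23% of all genes passed (0.0371% higher and 0.193% lower). Yet 81 of the 93 lay above 0, with a median of 0.17 against 0.03 over all genes. The parental doxorubicin nuclear sums were 15739 to 16207 CPM against 13583 to 15102 CPM under vehicle, without overlap. In resistant tumours none passed in edgeR (3 higher and 4 lower at an unadjusted p under 0.05) or in DESeq2, where 0.0% of all genes passed, and the medians were -0.02 for nuclear and 0.18 for mitochondrial members. For both lines the share of all genes is at the adjusted threshold. It gives no background for the unadjusted counts of members.

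The combination called no member against vehicle in edgeR in either line. In parental tumours 14 were higher and 4 lower at an unadjusted p under 0.05, DESeq2 called 1 (MT-ND1), and 1.03% of all genes passed (0.645% higher and 0.385% lower). In resistant tumours 4 were higher and 15 lower at an unadjusted p under 0.05, DESeq2 called 1 (MT-ND4L), and 1.13% of all genes passed (0.911% higher and 0.215% lower). The resistant medians were -0.16 for nuclear and 0.13 for mitochondrial members, and all 11 tested nuclear complex IV subunits lay below 0. Without resistant combination 3, edgeR called 1 member there, and without the 2 libraries that stood apart it called 3. In the tests of the difference between the lines, edgeR called no member for doxorubicin (none higher and 10 lower at an unadjusted p under 0.05, none by DESeq2, 0.0% of all genes) and none for the combination (8 higher and 29 lower at an unadjusted p under 0.05, 1 by DESeq2, COX7A2L, and 3 by edgeR without resistant combination 3, with 0.0222% of all genes passing, 0.0148% higher and 0.00741% lower). All shares of genes passing given here are at the adjusted threshold, so they give no background for the unadjusted counts of members. All comparisons against vehicle within a line share the same vehicle libraries.

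The 2 libraries that stood apart shared a set of low members. Parental vehicle 3 and resistant decitabine 2 were each compared with the mean of the other libraries of their group in log2(CPM + 1), and 12 of 93 members (12.9%) lay more than 1 below in both, against 3.82% of all genes tested. SDHB was among the lowest, at 7.20 CPM in parental vehicle 3 beside 38.3, 36.9 and 28.5 CPM, and at 5.09 CPM in resistant decitabine 2 beside 26.9 and 33.2 CPM. SDHA, also of complex II, was at 16.2 CPM beside 49.1, 47.8 and 44.3 CPM, and at 14.7 CPM beside 64.5 and 63.7 CPM. The others were NDUFA4, NDUFA8, NDUFB3, NDUFB5 and NDUFB7, then COX7A2L, COX7B, ATP5F1C and ATP5MK and, alone among the mitochondrial genes, MT-CO2.

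Members above the rest by over 0.5 in both libraries were NDUFA13, ATP5IF1, UQCRHL and ATP5MGL, 4.30% of members against 5.42% of all genes. UQCRHL and ATP5MGL are near-identical copies of UQCRH and ATP5MG and their counts are uncertain. Across the 93 members, the deviations of the 2 libraries had a Pearson r of 0.906, and across all 13495 genes 0.689. Genes are not independent replicates, and the points share the 2 libraries' depth and scaling, so these values describe the libraries only.

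**Figure D5:**
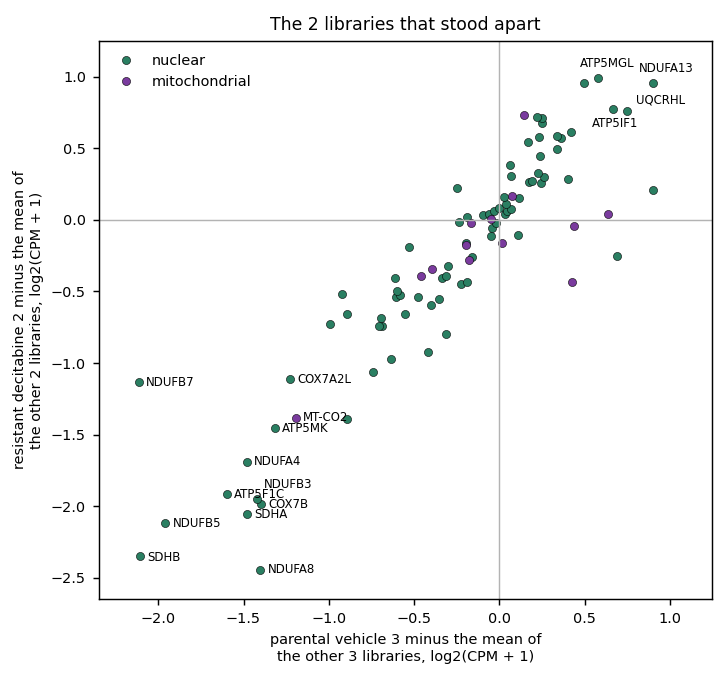
Deviation of parental vehicle 3 (x) and resistant decitabine 2 (y) from the mean of the other libraries of their groups in log2(CPM + 1), with 1 point per tested member. The 12 labelled points at lower left lie more than 1 below in both libraries and the 4 labelled at upper right more than 0.5 above.

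Of the tissue-specific isoforms of complex IV, the forms known from most tissues were present and the forms known from muscle, lung or testis were at or near 0. COX4I1 ran from 282.6 to 459.4 CPM, and its hypoxia-responsive partner COX4I2 had no count in 133826928 counts, which allows up to 0.0224 CPM by counting error alone. COX6A2, the muscle form, also had none, while COX6A1 ran from 244.3 to 357.2 CPM. COX7A1, another muscle form, had 2 counts, and COX7A2 ran from 226.7 to 348.4 CPM. The testis forms COX6B2, COX7B2 and COX8C had 18, 4 and 37 counts in all. The readthrough gene ATP5MF-PTCD1 had none. These 7 are the members that the filter removed.

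Genes that build, supply or regulate the complexes, 235 genes in 12 lists, were read beside the members for the line comparison, where 46.0% of all genes were called. Complex IV assembly had 6 of 22 tested genes higher and 4 lower, with the assembly factors PET100 at -0.66, COX18 at -0.60 and COA7 at -0.54. Complex I assembly had 2 higher and 3 lower of 16, complex II assembly 1 higher of 4, ATP synthase assembly 1 and 1 of 5, and complex III assembly 2 and 2 of 7, with UQCC2, a factor for cytochrome b, at -0.72. Mitochondrial import had 1 higher and 5 lower of 17, the lower ones including the chaperones HSPA9 at -0.55 and HSPD1 at -0.46 and the motor anchor TIMM44 at -0.67.

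Of the 26 genes of mitochondrial DNA and RNA, 1 was higher and 3 were lower. TFAM, which packages mitochondrial DNA and starts its transcription, changed by -0.41 (SE 0.09, edgeR adjusted p = 0.00037). The mitochondrial ribosome had 10 higher and 21 lower of 73, led by MRPS2 at 0.87, MRPL2 at -0.83 and MRPL13 at -0.74. Among 11 regulators of biogenesis 3 were higher and 2 lower, with GABPA, the DNA-binding subunit of GABP, at -0.66 and YY1 at -0.44. The TCA cycle had 3 higher and 5 lower of 16, with fumarate hydratase (FH) at -0.61. Electron carriers and coenzyme Q synthesis had 4 higher and 1 lower of 18, and the hypoxia-linked list 0 higher and 2 lower of 8, with VEGFA at -0.87.

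For the decitabine average, with 6.8% of all genes called, these lists held few calls outside the hypoxia-linked list. The called genes were the complex IV assembly factor COX20 at -0.21, the complex I assembly factor ECSIT at -0.26, the mitochondrial rRNA methyltransferase TFB1M at -0.29, the import receptor TOMM20 at -0.21, the TCA cycle enzyme IDH2 at 0.49 and MRPS2 at 0.23. TFAM changed by 0.11 (SE 0.09, edgeR adjusted p = 0.533). For the doxorubicin average, HSPD1 changed by -0.33 and ECSIT by 0.27.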

How the data were processed

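Gene expression was measured in 29 xenograft tumours by 3′-end RNA sequencing. The values are raw read counts per gene, deposited by the authors as 1 table. The submitters' processing notes name the tools featureCounts, STAR (version 2.7.3a), DESeq2 and cutadapt and genome build GRCh38.p10; their order, the strand setting and the treatment of mouse reads are not given in the sources used here. Columns were matched to samples by the library name in each sample's description, and groups were read from the titles. Symbols came from a separate list of gene names. Positions and gene types came from GENCODE release 29, which held 58039 of the 58302 gene identifiers.

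Low genes were removed with filterByExpr at a minimum count of 10 and a minimum total of 15, which left 13495 genes holding 99.7% of counts; library totals ran from 3398261 to 5382295. CPM values were computed from these counts. All 29 libraries entered 1 edgeR 4.0.16 quasi-likelihood fit (R 4.3.3, limma 3.58.1) with 8 group means and TMM scaling, which gave a common dispersion of 0.0304, and p-values were adjusted over all genes tested at a threshold of 0.05. Fold changes are log2. Shares of all genes called are at the adjusted threshold, also where members are counted at an unadjusted p. Alternatives were DESeq2 1.42.0, its size factors, upper-quartile scaling, scaling without mitochondrial genes, no filter, the replicate number as a block, leaving out each library, and leaving out the 2 that stood apart. Counting error alone sets the limit for a gene with no count (3 counts).

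The labels give replicate numbers but nothing that they share. Over 2000 genes, 94 pairs with the same number had a median correlation of 0.0175, with 32 over 0.1 and a highest value of 0.434. Pairs with different numbers had a median of 0.00079. The main fit therefore did not pair libraries by number, though a median near 0 cannot exclude that some are paired. Every pair of libraries within a group differed beyond sampling noise, with a chi-square of at least 3.94 for each degree of freedom. The fit was tested on simulated counts.

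The members and the gene lists were chosen with earlier results of these data known. Named genes are the 13 mitochondrial genes, up to 6 called members per direction and comparison by size of change, the isoforms and paralogues listed, SDHA to SDHD, and up to 3 called genes per pathway list. Members outside this rule (the complex I core subunits, NDUFA10, NDUFC2, NDUFS6, UQCRB, UQCRHL, ATP5MF, ATP5MG, the readthrough gene, those low or high in the 2 libraries that stood apart, and those DESeq2 called) were named after their values were seen. 2 list genes had no matching row. The values of 1 complex I gene are not reported here, though it is included in the counts and medians.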

Additional observations from a re-analysis of the deposited data

Results flagged for a closer look

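In 100 groups of 4 libraries (the members given by library, and the sums), a library far from the rest of its group was looked for, and 5 were found where chance gives about 1 in 20. NDUFB9 was at 211.8 CPM in parental combination 2, where the other 3 libraries had 190.9 to 192.9 CPM. It was also at 115.0 CPM in resistant vehicle 4, beside 84.6 to 88.1 CPM. NDUFS5 was at 318.1 CPM in parental vehicle 2, beside 294.5 to 296.7 CPM. UQCRH was at 342.1 CPM in resistant doxorubicin 2, beside 349.3 to 350.3 CPM, where the gap is small and the other 3 lie close together. MT-CO3 was at 7359 CPM in resistant doxorubicin 3, beside 6709 to 6727 CPM. For NDUFB9, NDUFS5 and UQCRH these libraries remained on their own line's side, since no parental and resistant library overlapped.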

How the results depend on the processing

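The split of called members between higher and lower turned for the line averaged over treatments, from 15 and 13 to 10 and 20 with no filter, 13 and 15 without the 2 libraries that stood apart, and for the line under vehicle from 9 and 6 to 5 and 6 without those 2. For the line averaged over treatments 24 to 33 members were called when 1 library was left out, and 28 with the replicate block; 19 of the 28 called members were called under every alternative. Without 1 library the ranges were 9 to 16 for the line under vehicle, 2 to 8 for the decitabine average, 1 to 10 for decitabine alone in resistant tumours, 0 to 2 for the doxorubicin average, 0 to 1 for the resistant combination and 0 to 3 for the line differences under decitabine and under the combination (3 without resistant combination 3); decitabine, doxorubicin and the combination in parental tumours, doxorubicin in resistant tumours and its line difference gave 0 to 0. The decitabine average moved without parental vehicle 3, resistant vehicle 1 or resistant doxorubicin 3, and the resistant decitabine count without resistant vehicle 1, 2 or 4 or resistant decitabine 1 or 2. The line difference under decitabine moved without parental vehicle 1 or resistant decitabine 3. DESeq2 gave 7 for the decitabine average (4 in edgeR), 14 for resistant decitabine (6), 3 for its line difference (0), and 1 each for both combinations and their line difference (0). With no filter, 97 members were tested, and the counts were 2 for the decitabine average, 3 and 15 for parental and resistant decitabine, 1 for the doxorubicin average, 1 and 1 for parental and resistant doxorubicin, 9 and 9 for the combinations, and 15, 1 and 21 for the line differences under decitabine, doxorubicin and both. The replicate block gave 3 for resistant decitabine and 1 for the doxorubicin average and moved no other count by over 1.5 times. Without the 2 libraries that stood apart the counts were 8 for the decitabine average, 2 for resistant decitabine, 1 for the doxorubicin average and 3 for the resistant combination. The cause was not tested in any of these cases. Differences in the log2 ratio of sums moved by less than 1 SD when 1 library, the 2 that stood apart, or the most abundant nuclear or mitochondrial member was left out, and when mean log2(CPM + 1) replaced the sums; the line difference under vehicle and the 3 parental treatment differences, all near 0, took either sign. Between scalings the median of all genes moved by less than 0.1 on the log2 scale. Genes that did not reach about 10 counts in enough libraries could not be tested.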
